A study of Homo sapiens with 12 samples.

Results

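The proteasome subunit genes were taken as the entries of the expression table whose symbol is PSM followed by a letter from A to G and a number, with a mean of at least 1 FPKM (fragments per kilobase of transcript, scaled to the mapped fragments of the library) over the 12 libraries. The rule found 47 entries with 46 symbols among the 18532 gene identifiers at or above that mean. Before the limit it matched 67 entries with 48 symbols. PSMA8 and PSMB11, subunits known from testis and thymus, were left out at means of 0.00322 and 0.00601 FPKM. The members nearest the limit on the other side were PSMB9 at 5.72 FPKM and PSMG4 at 9.27 FPKM. PSMA2 has a second identifier, ENSG00000256646, which GENCODE 29 names AC010132.3 and places at chr7:42909273-42932174 on the minus strand of GRCh38, over PSMA2 itself at chr7:42916857-42932223 on the same strand. How reads were split between them is uncertain, and the second identifier is counted apart.

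The libraries came from RD, a fusion-negative rhabdomyosarcoma line (FN-RMS), and Rh30, a PAX3-FOXO1 fusion-positive line (FP-RMS). Each line stably carried an shRNA vector with either a scrambled control (Scramble) or KDM3A-sh2, an shRNA against the histone demethylase KDM3A, and was selected with puromycin, so the controls carry vector and selection too. Each of the 4 groups has 3 libraries, whose values are given here in the order of replicates 1, 2 and 3. The knockdown rests on 1 shRNA sequence, each tumour class on 1 line, and RD and Rh30 were grown in different media (DMEM and RPMI), so line and medium cannot be told apart. Whether 3 cultures lie behind the triplicates of a group is not given in the sources used here, so p-values measure only the spread between these libraries, which may be technical.

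The proteasome is the barrel-shaped protease that degrades ubiquitin-tagged proteins. Its core is built of rings of alpha subunits (PSMA) around rings of beta subunits (PSMB), and 3 of the beta subunits, PSMB5, PSMB6 and PSMB7, cut the chain. The regulatory particle on either end has a base, with ATPases (PSMC) that unfold the substrate, and a lid, in which PSMD14 removes ubiquitin. In cells exposed to interferon, PSMB8, PSMB9 and PSMB10 replace the cutting subunits to form the immunoproteasome, which favours peptides for MHC class I, and PSME1 and PSME2 form the activator PA28. The members fall here into 8 core alpha entries, 7 core beta genes, 3 immunoproteasome genes, 6 ATPases and 3 other subunits of the base, 8 lid genes, 4 activators, 1 inhibitor and 7 assembly factors.

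KDM3A itself was at 35.8, 33.9 and 30.9 FPKM in RD Scramble and at 12.0, 11.2 and 13.4 FPKM with KDM3A-sh2. Its Rh30 levels were 27.8, 29.2 and 32.0 FPKM in Scramble and 13.7, 13.2 and 15.4 FPKM in KDM3A-sh2. The target fell in both lines (log2 difference -1.39 and -1.02, adjusted p = 5.00e-05 and 0.000348, limma). Myogenic markers were present in every group (5 of 6 at a mean of at least 1 FPKM, with MYF5 at 0 or near it). FPKM do not hold the number of reads, so depth is unknown in absolute terms. Relative depth, read from the steps between low values, was 0.859 to 1.18 times that of the median library, and in both lines every KDM3A-sh2 library was below every Scramble library. Its part in the results was not tested.

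Summed over the 47 entries, proteasome mRNA came to 11066 ± 142 FPKM in RD Scramble (mean ± SD, n = 3), 10981 ± 297 in RD KDM3A-sh2, 9440 ± 111 in Rh30 Scramble and 9149 ± 266 in Rh30 KDM3A-sh2. This was 0.893%, 0.907%, 0.705% and 0.671% of all FPKM in the library. In bulk samples like these, fewer cells of a type and less RNA per cell cannot be told apart. In RD Scramble the median symbol stood at 163.8 FPKM, from PSMG4, an assembly chaperone, at 7.58 ± 0.429 FPKM to PSMA7, an alpha subunit, at 902.8 ± 20.7 FPKM. In Rh30 Scramble the median was 148.3 FPKM, from PSMB9 at 0.276 ± 0.0623 FPKM to PSMA7 at 1466 ± 47.5 FPKM. After PSMA7 the order in RD Scramble ran PSMB1 (639.3 ± 3.75 FPKM), PSMB7 (612.2 ± 14.8 FPKM) and PSMB5 (587.3 ± 21.8 FPKM), of which PSMB7 and PSMB5 overlapped within their SDs.

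**Figure D1:**
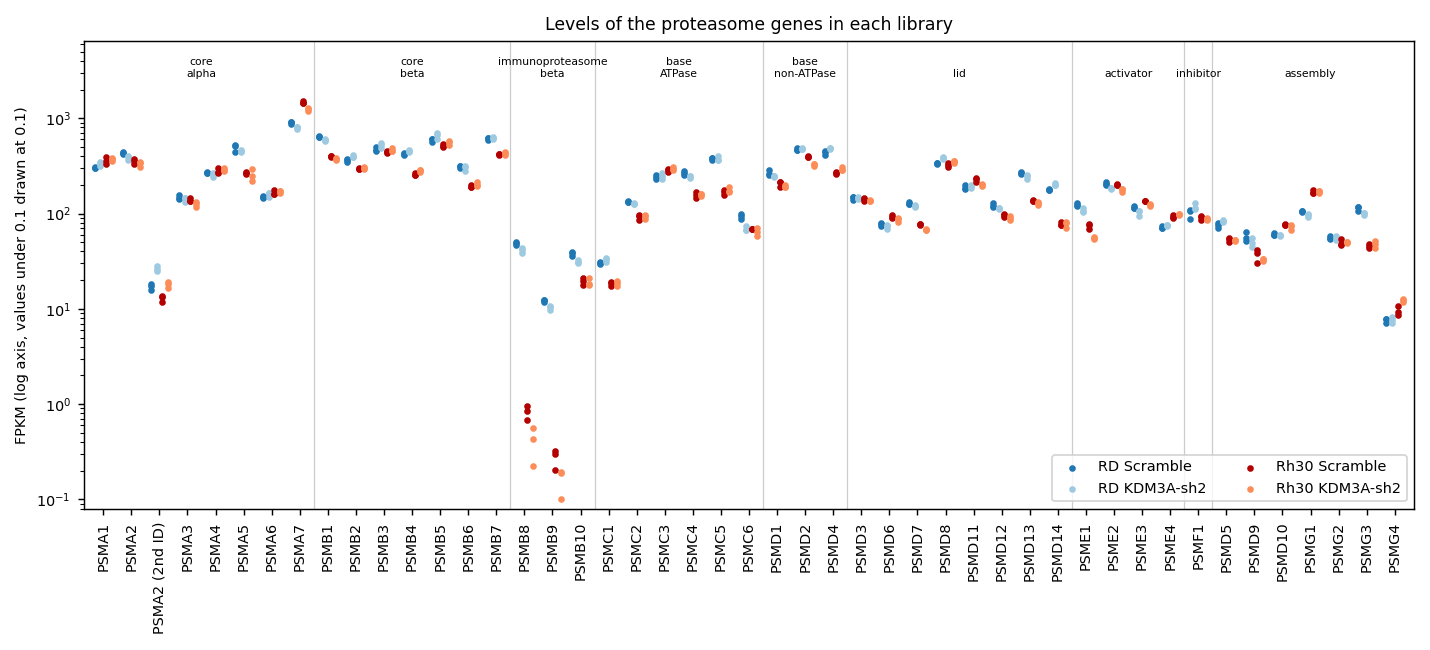
FPKM (log axis, values under 0.1 drawn at 0.1) of the 46 member symbols and of the second PSMA2 identifier, grouped by class, with 1 point per library and a colour for each of the 4 groups. For most members the 4 groups lie close together on this axis, while the points of PSMB8 and PSMB9 split by line, with all 6 Rh30 libraries below 1 FPKM.

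In RD Scramble the core beta genes had the highest class median, 474.2 FPKM (309.0 to 639.3 FPKM), and the assembly genes had a median of 60.4 FPKM. The ATPases ran from 30.3 FPKM for PSMC1 to 374.6 FPKM for PSMC5, although all 6 proteins share 1 ring. PSMC1 has near-identical processed copies in the table. PSMC1P1 averaged 132.9 FPKM over the 12 libraries against 25.0 FPKM for PSMC1, which held only 11.5% to 15.7% of the summed level with its 3 listed copies, so the level of PSMC1 is uncertain. Of 16 PSM pseudogenes with a mean of at least 1 FPKM, 10 were above 10 FPKM, and the parents of these 10 are PSMA2, PSMA3, PSMA6, PSMB3, PSMC1, PSMD7, PSMD8, PSMD12 and PSME2.

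The members differed more between the lines than with the knockdown. With Scramble, 29 of the 47 entries were lower and 11 higher in Rh30 than in RD at an adjusted p under 0.05 (limma on log2(FPKM + 1)), or 61.7% and 23.4%. Over all 18357 genes tested the percentages were 39.6 lower and 35.0 higher. The median log2 difference of the entries was -0.35, against -0.04 over all genes, and the median size 0.38 against 0.58. The groups did not overlap for 41 entries, against 77.5% of all genes. With every library scaled to the same FPKM sum, 35 entries were lower and 7 higher, the entries' median was -0.46, and the median of all genes moved from -0.04 to -0.14. All 47 passed the filter on low values, PSMB8 and PSMB9 only through their level in RD.

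Of the 7 core beta genes 6 were lower in Rh30 and 1 was not called, and all 3 immunoproteasome genes were lower, as were 5 of the 6 ATPases and all 3 other base subunits. PSMB8 and PSMB9, which passed the filter only through RD, could hardly come out higher in Rh30, so the immunoproteasome count is partly fixed by the filter. In the alpha ring 3 entries were higher, 3 lower and 2 not called. In the lid 2 were higher and 4 lower, among the activators 2 higher and 1 lower, and among the assembly factors 3 higher and 4 lower. Without the immunoproteasome genes, the 32 entries of core, base and lid held 21 lower and 6 higher (65.6% and 18.8%), with a median of -0.36. Over all genes 39.6% were lower and 35.0% higher, and the counts by class were not tested against these shares. The core beta genes summed to 3405 ± 72.0 FPKM in RD Scramble and 2524 ± 48.1 FPKM in Rh30 Scramble. The alpha entries summed to 2714 ± 29.9 and 3040 ± 38.1 FPKM. This higher alpha sum rests on PSMA7 (902.8 ± 20.7 and 1466 ± 47.5 FPKM), and the alpha entries did not rise as a class.

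**Figure D2:**
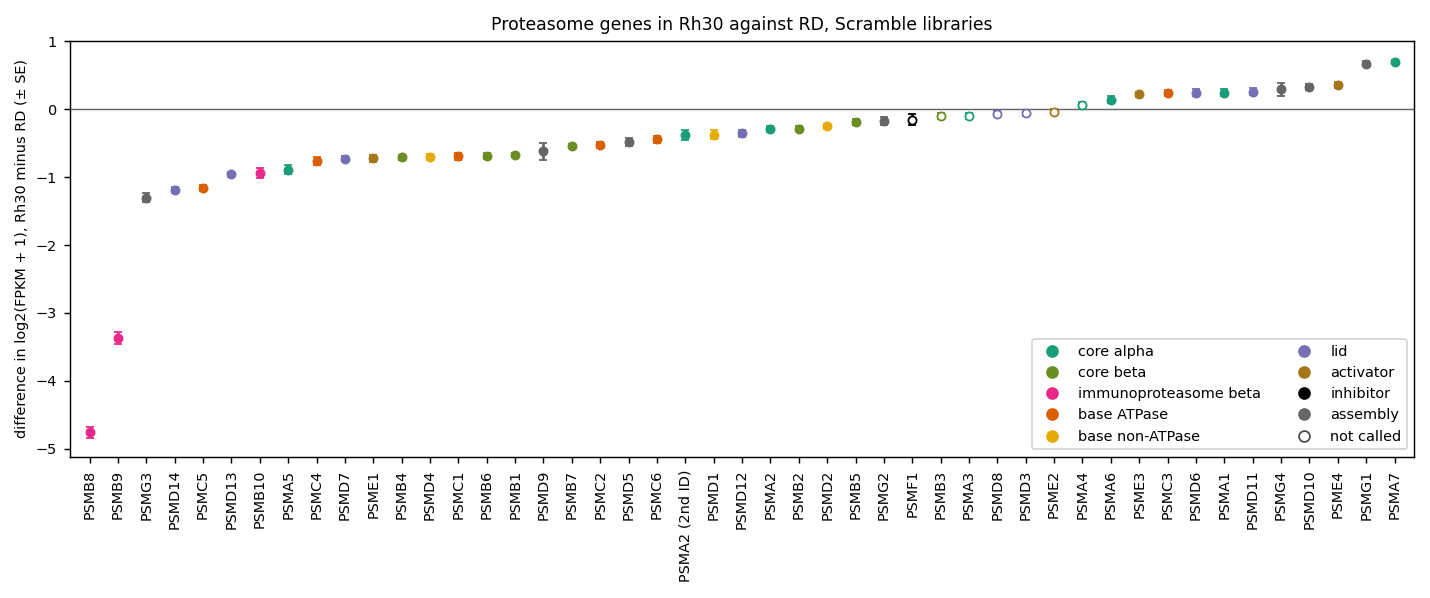
Difference of Rh30 and RD in Scramble on the log2(FPKM + 1) scale for each of the 47 entries, in rising order, coloured by class, with bars for 1 standard error, filled points for called entries and open points for the others. PSMB8 and PSMB9 stand apart at -4.76 and -3.37, PSMG3 and PSMD14 follow at -1.30 and -1.19, and PSMA7 is highest at 0.70.

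PSMB8, which takes the place of PSMB5 in the immunoproteasome, was at 46.3, 50.1 and 48.9 FPKM in RD Scramble and at 0.686, 0.954 and 0.842 FPKM in Rh30 Scramble. PSMB9, which takes the place of PSMB6, was at 12.3, 12.4 and 11.9 FPKM in RD and at 0.322, 0.300 and 0.205 FPKM in Rh30. All 3 Rh30 Scramble libraries were below 1 FPKM for both genes, and the RD means were 58.5 and 44.2 times those of Rh30. On the log2(FPKM + 1) scale, which understates the change of low genes, the differences were -4.76 (SE 0.0805, adjusted p = 2.09e-08, limma) for PSMB8 and -3.37 (SE 0.0879, adjusted p = 1.13e-07) for PSMB9. Since both genes passed the filter on low values only through RD, the direction of these calls is partly fixed by the filter. PSMB10, the partner of PSMB7, was at 38.5, 39.1 and 35.8 FPKM in RD and at 17.6, 20.9 and 19.4 FPKM in Rh30, a smaller drop (-0.94, SE 0.0727, adjusted p = 2.08e-05). The cutting subunits of the ordinary proteasome were also lower in Rh30. PSMB5 stood at 587.3 ± 21.8 FPKM in RD and 517.2 ± 21.6 FPKM in Rh30 (-0.18, adjusted p = 0.00701), PSMB6 at 309.0 ± 10.3 and 192.0 ± 6.61 FPKM (-0.68, adjusted p = 5.51e-06) and PSMB7 at 612.2 ± 14.8 and 419.9 ± 8.29 FPKM (-0.54, adjusted p = 5.18e-06).

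Set against its constitutive partner, PSMB8 mRNA was 8.24% ± 0.107 of PSMB5 in RD Scramble and 0.159% ± 0.0199 in Rh30 Scramble (mean ± SD, n = 3). PSMB9 was 3.95% ± 0.178 of PSMB6 in RD and 0.143% ± 0.0316 in Rh30. For PSMB10 and PSMB7 the ratio was 6.18% ± 0.334 in RD and 4.59% ± 0.309 in Rh30, with both genes of the ratio lower in Rh30.

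PSMB8 (chr6:32840717-32844703, minus strand) and PSMB9 (chr6:32844136-32859585, plus strand) overlap at their starts on opposite strands in the MHC region, by the GENCODE 29 intervals. The sequencing was directional, but whether the counting used the strand is not given in the sources used here, so how reads from the shared stretch were split is uncertain. The table lists 7 further identifiers for each of the pair, all at 0 in every library. TAP1, which carries peptides into the endoplasmic reticulum, lies within the PSMB9 interval on the minus strand (chr6:32845209-32853978). How reads were split between TAP1 and PSMB9 is thus uncertain too. TAP1 was at 18.2 ± 1.29 FPKM in RD Scramble and 0.823 ± 0.101 FPKM in Rh30 Scramble. HLA-B and HLA-C were at 78.3 and 85.8 FPKM in RD and at 0.449 and 1.05 FPKM in Rh30 (means). Their GENCODE 29 intervals overlap on the minus strand (chr6:31269491-31357188 and chr6:31268749-31272130), so how reads were split between these genes is also uncertain. Other genes of the region differed much less, with TAP2 at 36.7 and 28.4 FPKM and HLA-E at 25.8 and 24.6 FPKM (RD and Rh30 Scramble means). B2M, the light chain of MHC class I on another chromosome, was at 1991 ± 65.5 and 1790 ± 99.3 FPKM. Of 10 antigen processing genes, 7 were lower in Rh30, 0 were higher and 3 were not called (70.0% lower, against 39.6% of all genes, and none higher, against 35.0%). TAP1 and HLA-B passed the filter on low values only through their level in RD, and HLA-C was near that limit in Rh30. Such genes could hardly come out higher in Rh30, so the share that was lower is partly fixed by the filter. IRF1, a transcription factor of the interferon response, was at 29.8 FPKM in RD Scramble and 29.4 FPKM in Rh30 Scramble. Of 4 leukocyte markers, cells that are rich in immunoproteasome, CD68 alone reached 1 FPKM (15.4 FPKM in RD Scramble, 0.0484 in Rh30 Scramble). The summed leukocyte level ran from 14.7 to 16.8 FPKM in RD Scramble and from 0.0131 to 0.456 FPKM in Rh30 Scramble, with PTPRC at 0.0398 and 0.00333 FPKM and CD3E at 0 in RD. CD3E was at 0.0402 FPKM in Rh30 Scramble, and ITGAM at 0.137 FPKM in RD Scramble and 0.118 FPKM in Rh30 Scramble. PTPRC, CD3E and ITGAM were thus low in both lines, while CD68 was higher in RD, as PSMB8 and PSMB9 were. The source of the CD68 mRNA was not tested.

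**Figure D3:**
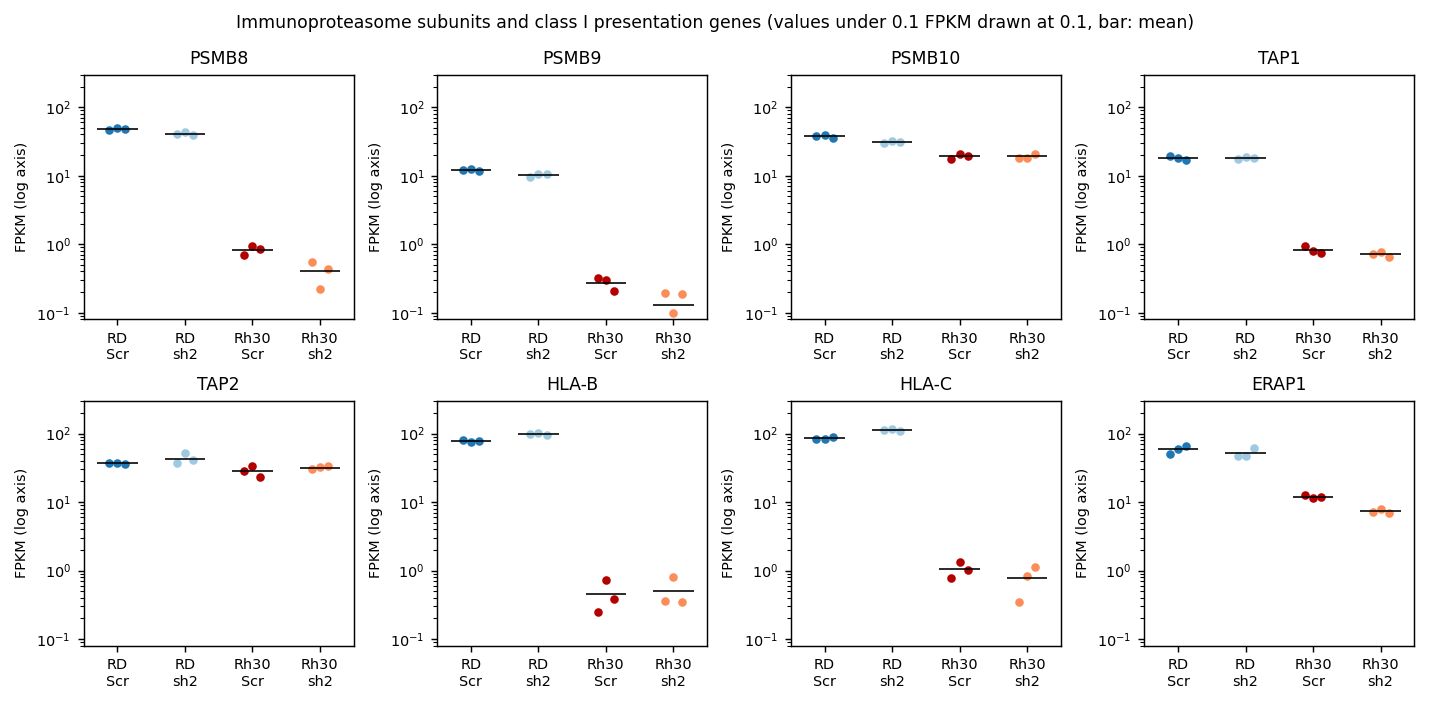
FPKM (log axis, values under 0.1 drawn at 0.1) of the 3 immunoproteasome genes and of TAP1, TAP2, HLA-B, HLA-C and ERAP1, an aminopeptidase that trims peptides for class I, in the 4 groups (Scr is Scramble, sh2 is KDM3A-sh2), with 1 point per library and a bar at each group mean. PSMB8, PSMB9 and TAP1 are above 9 FPKM in every RD library and below 1 FPKM in every Rh30 library, while the lines are much closer for PSMB10 (37.8 and 19.3 FPKM in Scramble).

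The start regions of PSMB8, PSMB9 and PSMB5 are shown because PSMB8 and PSMB9 differed most between the lines and PSMB5 is the constitutive counterpart of PSMB8. Each is the RefSeq stretch of 300 bases from 250 before to 50 after the start that RefSeq gives the gene on GRCh38.p14, written 5′ to 3′ on the strand of the gene, at chr6:32844630-32844929 (minus) for PSMB8, chr6:32853942-32854241 (plus) for PSMB9 and chr14:23035171-23035470 (minus) for PSMB5. The PSMB9 window lies inside the longer GENCODE 29 interval given above and not at that interval's start. Capitals mark a match on either strand to 1 of 4 motifs: the antioxidant response element core TGACNNNGC that NRF1 and NRF2 bind, CCAAT, the ETS motif CCGGAAG and the YY1 motif GCCATNTT. The letters of different motifs were allowed to overlap.
PSMB8: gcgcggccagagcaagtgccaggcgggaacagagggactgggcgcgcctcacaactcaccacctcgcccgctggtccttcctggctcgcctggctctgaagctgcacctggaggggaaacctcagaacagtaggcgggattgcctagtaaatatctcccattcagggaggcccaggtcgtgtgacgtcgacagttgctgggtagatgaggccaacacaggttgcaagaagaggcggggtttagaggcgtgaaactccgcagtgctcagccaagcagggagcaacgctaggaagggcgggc
PSMB9: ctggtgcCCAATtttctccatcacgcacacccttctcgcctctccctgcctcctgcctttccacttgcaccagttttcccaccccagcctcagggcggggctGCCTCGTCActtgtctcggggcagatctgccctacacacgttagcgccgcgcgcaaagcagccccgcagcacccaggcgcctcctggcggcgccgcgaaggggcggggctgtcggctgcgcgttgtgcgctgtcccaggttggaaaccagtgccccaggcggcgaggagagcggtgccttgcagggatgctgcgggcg
PSMB5: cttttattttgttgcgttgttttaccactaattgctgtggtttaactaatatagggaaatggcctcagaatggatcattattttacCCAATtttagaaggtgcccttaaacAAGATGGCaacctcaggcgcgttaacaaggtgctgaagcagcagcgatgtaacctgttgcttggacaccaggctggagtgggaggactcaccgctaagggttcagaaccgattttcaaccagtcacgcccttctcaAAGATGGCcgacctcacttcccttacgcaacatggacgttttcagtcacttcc
PSMB8 holds none of the 4 motifs in this window, PSMB9 a response element core and a CCAAT, and PSMB5 a CCAAT and a pair of YY1 motifs. Of the 46 member symbols, 40 have a start region in the RefSeq table, and 34 of these hold at least 1 of the motifs. The response element core is in 13 of the 40 (32.5%), against 13.6% of 27305 start regions of the same length. CCAAT is in 18 (45.0%, against 35.7%), the ETS motif in 12 (30.0%, against 10.7%) and the YY1 motif in 7 (17.5%, against 6.82%). These are counts of letters and were not tested.

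Outside the immunoproteasome, the largest drops in Rh30 were in an assembly factor and a lid subunit. PSMG3, a chaperone of the alpha ring, was at 117.4, 106.3 and 118.3 FPKM in RD Scramble and at 43.0, 47.6 and 46.0 FPKM in Rh30 Scramble (log2 difference -1.30, SE 0.0600, adjusted p = 1.47e-06, limma). PSMD14, the deubiquitinase of the lid, was at 174.9, 178.2 and 182.2 FPKM in RD and at 75.4, 75.8 and 81.5 FPKM in Rh30 (-1.19, SE 0.0433, adjusted p = 4.81e-07). PSMD4, a ubiquitin receptor of the base, was also lower (435.5 ± 20.7 and 265.8 ± 7.32 FPKM, -0.71, adjusted p = 6.58e-06). PSMC5, an ATPase, was singled out after its values were seen, at 374.6 ± 11.3 and 166.7 ± 9.88 FPKM.

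The rises went to PSMA7 (879.2, 917.8 and 911.4 FPKM in RD Scramble, 1447, 1520 and 1431 FPKM in Rh30 Scramble, 0.70, SE 0.0345, adjusted p = 2.08e-06, limma) and to PSMG1, another chaperone of the alpha ring (105.1, 105.8 and 104.0 FPKM, then 164.3, 165.1 and 175.2 FPKM, 0.67, adjusted p = 4.11e-06). PSMG1 was thus higher and PSMG3 lower in Rh30, although both act on the alpha ring. Of the other chaperones, PSMG2, the partner of PSMG1, was lower by a little (56.1 ± 2.01 and 49.8 ± 3.80 FPKM, -0.17, adjusted p = 0.0435), and PSMG4, the partner of PSMG3, was higher (7.58 ± 0.429 and 9.54 ± 1.01 FPKM, 0.29, adjusted p = 0.0216). The PSMG2 call was lost without any 1 library but Rh30 Scramble replicate 3 (adjusted p = 0.0585 to 0.132), and the PSMG4 call without Rh30 Scramble replicate 1 (0.0654) or RD Scramble replicate 2 (0.0736). The PSMG1 mean was 168.2 FPKM and the PSMG2 mean 49.8 FPKM in Rh30, against 105.0 and 56.1 FPKM in RD.

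Among the activators the lines differed gene by gene. PSME1 was at 121.5, 121.1 and 127.9 FPKM in RD Scramble and at 69.1, 75.9 and 78.5 FPKM in Rh30 Scramble (-0.72, SE 0.0561, adjusted p = 2.10e-05, limma). Its partner PSME2 was at 206.9 ± 8.39 and 201.7 ± 1.42 FPKM and was not called (-0.04, adjusted p = 0.427). PSME3, the nuclear activator PA28 gamma, was higher in Rh30 (116.2 ± 2.73 and 135.5 ± 0.297 FPKM, 0.22, adjusted p = 0.000785), as was PSME4, the activator PA200 (72.0 ± 1.92 and 92.7 ± 3.30 FPKM, 0.36, adjusted p = 0.000215). PSMF1, which inhibits the core, was at 101.1 ± 10.9 and 90.8 ± 4.36 FPKM and was not called (-0.15, adjusted p = 0.145).

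The knockdown addresses which transcripts depend on KDM3A, and for most proteasome members the differences were small. In RD, 27 of the 47 means moved by 10% or less and 45 by 20% or less. In Rh30 the counts were 35 and 42. PSMB8 and PSMB9, below 1 FPKM in every Rh30 library, were among those that moved further there (-51.3% and -53.7%). The share of all genes within these limits was not taken. In RD, 7 entries rose and 13 fell (14.9% and 27.7%), against 21.6% and 19.5% of the 17988 genes tested (limma). In Rh30, 4 of 45 rose and 8 fell (8.89% and 17.8%), against 15.3% and 13.2% of 17803 genes, with PSMB8 and PSMB9 below the filter. The median log2 difference was -0.04 in RD and -0.01 in Rh30, against 0.01 and 0.03 over all genes. The median size was 0.13 and 0.08, against 0.22 and 0.18. The groups did not overlap for 30 entries in RD and 18 in Rh30, against 53.4% and 45.8% of all genes. Counts near those of all genes are no result about the members as a group, and what follows concerns single genes.

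These counts rest on small differences and moved when a library was left out. In RD the count lower went from 13 to 6 without Scramble replicate 3, 7 without Scramble replicate 2 or KDM3A-sh2 replicate 2 and 8 without Scramble replicate 1, and the count higher from 7 to 3 without KDM3A-sh2 replicate 1 and 4 without Scramble replicate 2. In Rh30 the count higher went from 4 to 1 without KDM3A-sh2 replicate 1 or 2 and to 2 without Scramble replicate 1 or 3, and the count lower from 8 to 5 without KDM3A-sh2 replicate 2. With every library scaled to the same FPKM sum, RD had 10 higher and 8 lower, and Rh30 3 higher and 10 lower.

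**Figure D4:**
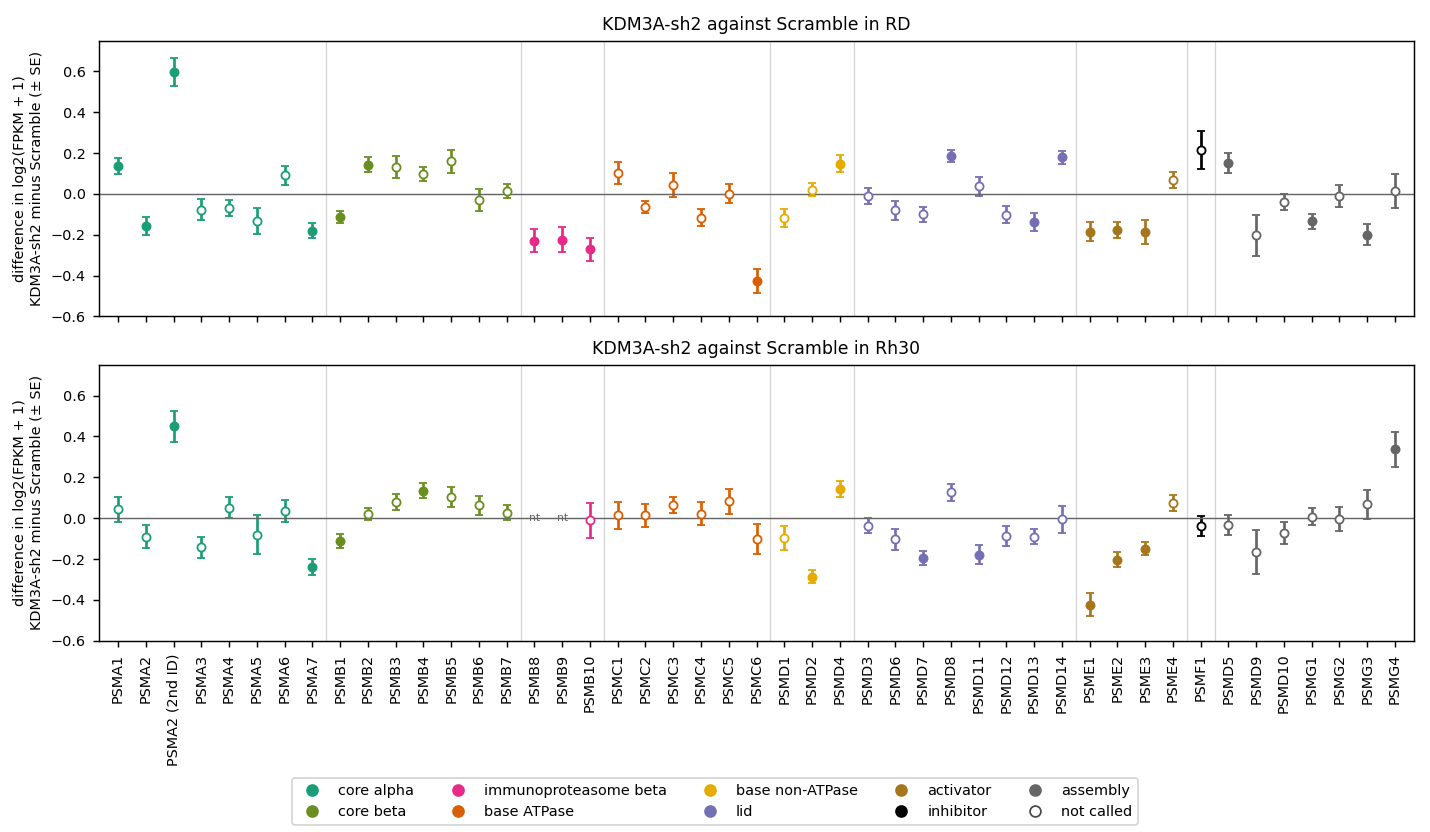
Difference of KDM3A-sh2 and Scramble on the log2(FPKM + 1) scale for the 47 entries, with RD above and Rh30 below, coloured by class, with bars for 1 standard error, filled points for called entries and open points for the others (nt: PSMB8 and PSMB9, not tested in Rh30). Most points lie near 0, PSME1, PSME2 and PSME3 are lower in both lines, and the second PSMA2 identifier is highest in both, at 0.60 and 0.45.

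Of the 45 entries tested in both lines, 5 were lower in both, 2 were higher in both, none was called in opposite directions and 22 were called in neither. Over the 15970 genes tested in both lines, 6.84% were lower in both and 6.51% higher in both. The 5 lower in both were PSMA7, PSMB1 and the activators PSME1, PSME2 and PSME3. The calls kept under every alternative run (other settings and each library left out) were those of PSMA7, PSME2 and the second PSMA2 identifier in both lines, of PSMB10, PSMC6, PSMD8 and PSMD14 in RD, and of PSMD2, PSMD7 and PSME1 in Rh30. The other calls of members were each lost under at least 1 alternative.

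Of the 4 activators, 3 fell in both lines, as did 6.84% of all genes tested in both. PSME1 was at 115.4, 106.4 and 104.2 FPKM in RD KDM3A-sh2, against 121.5, 121.1 and 127.9 in Scramble (-0.18, SE 0.0488, adjusted p = 0.0220, limma). In Rh30 it was at 55.3, 56.7 and 53.6 FPKM, against 69.1, 75.9 and 78.5 in Scramble (-0.43, SE 0.0563, adjusted p = 0.00259), a mean lower by 26.0% where RD lost 12.0%. Neither pair of groups overlapped (as for 53.4% of all genes in RD and 45.8% in Rh30), and the call in Rh30 stayed with any 1 library left out. The call in RD was lost without Scramble replicate 3 (adjusted p = 0.0688), KDM3A-sh2 replicate 2 (0.0705) or KDM3A-sh2 replicate 3 (0.0629).

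PSME2 fell from 205.9, 199.0 and 215.7 FPKM to 183.1, 178.8 and 187.1 FPKM in RD (-0.18, SE 0.0399, adjusted p = 0.0120, limma). It fell from 203.3, 201.3 and 200.6 FPKM to 178.8, 167.8 and 178.8 FPKM in Rh30 (-0.20, SE 0.0366, adjusted p = 0.00815), and both calls stayed with any 1 library left out. The copy PSME2P2 stood at 11.1% of PSME2. PSME3 fell from 119.1, 113.8 and 115.5 to 107.2, 93.5 and 105.9 FPKM in RD (-0.19, adjusted p = 0.0401) and from 135.7, 135.2 and 135.7 to 124.6, 121.7 and 120.2 FPKM in Rh30 (-0.15, adjusted p = 0.0150). The RD call was lost without Scramble replicate 1 (adjusted p = 0.107), 2 (0.0755) or 3 (0.0865) or KDM3A-sh2 replicate 2 (0.0652), and the Rh30 call without Scramble replicate 1 (0.0505) or KDM3A-sh2 replicate 2 (0.0538). PSME4, the fourth activator, was not called in either line (0.07, adjusted p = 0.185, and 0.08, adjusted p = 0.188). Nor was the inhibitor PSMF1, at 0.22 and -0.04 (adjusted p = 0.104 and 0.581). The 4 activators together had 518.5 ± 14.2 FPKM in RD Scramble, 469.3 ± 12.7 in RD KDM3A-sh2, 504.5 ± 6.67 in Rh30 Scramble and 450.2 ± 6.14 in Rh30 KDM3A-sh2, and the lowest Scramble sum was above the highest KDM3A-sh2 sum in each line. This was not particular to the activators. The core alpha sum also fell without overlap in both lines. The immunoproteasome and assembly sums did so in RD, and the sums of the lid and of the other base subunits in Rh30.

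The start regions of PSME1 (chr14:24135944-24136243, plus strand) and PSME2 (chr14:24146561-24146860, minus strand), the neighbouring genes of the PA28 subunits that fell together, are shown in the same window and build, that of PSME2 from a RefSeq start inside its GENCODE 29 interval. Capitals again mark the motifs, and the only match in each is a response element core.
PSME1: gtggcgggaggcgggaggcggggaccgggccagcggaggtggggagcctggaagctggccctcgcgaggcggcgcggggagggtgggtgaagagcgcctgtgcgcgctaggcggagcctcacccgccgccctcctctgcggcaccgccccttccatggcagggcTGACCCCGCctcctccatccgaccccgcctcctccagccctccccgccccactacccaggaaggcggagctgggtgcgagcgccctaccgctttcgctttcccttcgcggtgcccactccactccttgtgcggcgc
PSME2: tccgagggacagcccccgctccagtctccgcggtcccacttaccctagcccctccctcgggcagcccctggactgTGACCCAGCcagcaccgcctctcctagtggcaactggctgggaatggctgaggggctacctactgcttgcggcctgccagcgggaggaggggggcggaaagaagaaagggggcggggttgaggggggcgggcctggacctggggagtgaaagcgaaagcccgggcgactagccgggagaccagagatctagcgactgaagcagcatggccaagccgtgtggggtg

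In the core, PSMA7 fell from 879.2, 917.8 and 911.4 FPKM to 816.8, 809.5 and 763.1 FPKM in RD (-0.18, SE 0.0368, adjusted p = 0.00766, limma). In Rh30 it fell from 1447, 1520 and 1431 FPKM to 1255, 1273 and 1196 FPKM (-0.24, SE 0.0380, adjusted p = 0.00520), so the most abundant member was lower by 11.8% and 15.3%. Both calls stayed with any 1 library left out. PSMB1, a beta subunit that does not cut, was lower by about the same in each line (639.3 ± 3.75 to 590.9 ± 14.4 FPKM, -0.11, adjusted p = 0.0201, and 400.5 ± 8.51 to 370.6 ± 9.89 FPKM, -0.11, adjusted p = 0.0485). In Rh30 the PSMB1 call was lost whichever of the 6 libraries was left out (adjusted p = 0.0544 to 0.136), and in RD without any 1 Scramble library (0.0502 to 0.0598). Core genes that rose were PSMA1 (301.6 ± 4.46 to 332.0 ± 15.0 FPKM, 0.14, adjusted p = 0.0302) and PSMB2 (361.2 ± 12.4 to 399.2 ± 10.3 FPKM, 0.14, adjusted p = 0.0199) in RD, and PSMB4 in Rh30 (257.6 ± 7.37 to 282.8 ± 8.11 FPKM, 0.13, adjusted p = 0.0365). The PSMA1 call was lost without any 1 library but KDM3A-sh2 replicate 2 (0.0501 to 0.0865), the PSMB2 call without KDM3A-sh2 replicate 1 (0.0669), and the PSMB4 call without any 1 library but Scramble replicate 2 or KDM3A-sh2 replicate 3 (0.0801 to 0.114). The constitutive cutting subunits were not called: PSMB5 was at 0.16 and 0.10 in RD and Rh30 (adjusted p = 0.0572 and 0.160), PSMB6 at -0.03 and 0.06 (adjusted p = 0.671 and 0.365) and PSMB7 at 0.01 and 0.03 (adjusted p = 0.775 and 0.641).

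The second PSMA2 identifier gave the largest rise in both lines, from 17.4, 15.9 and 18.0 to 26.4, 24.8 and 27.8 FPKM in RD (0.60, SE 0.0686, adjusted p = 0.000672, limma) and from 11.9, 13.2 and 13.6 to 18.2, 19.0 and 16.7 FPKM in Rh30 (0.45, SE 0.0762, adjusted p = 0.00664). PSMA2 itself was at 432.3 ± 9.61 and 388.1 ± 19.1 FPKM in RD (-0.16, adjusted p = 0.0247) and at 353.1 ± 17.7 and 331.9 ± 20.4 FPKM in Rh30, where it was not called. The rising identifier covers the longer interval at the same place and holds a small part of the level, so a rise of PSMA2 cannot be read from it.

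All 3 immunoproteasome genes fell in RD, where 19.5% of all genes did. PSMB8 was at 41.3, 43.6 and 38.7 FPKM in KDM3A-sh2, below the 46.3, 50.1 and 48.9 FPKM of Scramble (-0.23, SE 0.0568, adjusted p = 0.0174, limma). PSMB9 was at 9.74, 10.5 and 10.7 FPKM, below 12.3, 12.4 and 11.9 FPKM (-0.22, SE 0.0620, adjusted p = 0.0260), and PSMB10 at 30.0, 32.6 and 30.9 FPKM, below 38.5, 39.1 and 35.8 FPKM (-0.27, SE 0.0542, adjusted p = 0.00707). No pair of groups overlapped, as for 53.4% of all genes in RD. The PSMB10 call stayed with any 1 library left out. That of PSMB8 was lost without Scramble replicate 2 (adjusted p = 0.0615) or 3 (0.0510), and that of PSMB9 without Scramble replicate 1 (0.0642) or 2 (0.0806) or KDM3A-sh2 replicate 1 (0.0828) or 2 (0.0569). In the fit over all 12 libraries the adjusted p was 0.0751 for PSMB8 and 0.0675 for PSMB9. As a percent of the constitutive partner, PSMB8 went from 8.24% ± 0.107 to 6.28% ± 0.349, PSMB9 from 3.95% ± 0.178 to 3.42% ± 0.375 and PSMB10 from 6.18% ± 0.334 to 5.04% ± 0.299. The PSMB9 ratio overlapped between the groups (3.78% to 4.13% in Scramble, 3.06% to 3.81% in KDM3A-sh2). PSMB5, the partner of PSMB8, stood at 587.3 ± 21.8 and 657.1 ± 45.2 FPKM, so both genes of that ratio moved, though PSMB5 was not called.

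In Rh30, PSMB10 was at 17.6, 20.9 and 19.4 FPKM in Scramble and at 17.9, 18.4 and 21.1 FPKM in KDM3A-sh2 (-0.01, adjusted p = 0.939, limma). PSMB8 was listed at 0.557, 0.222 and 0.429 FPKM and PSMB9 at 0.195, 0 and 0.188 FPKM in Rh30 KDM3A-sh2, levels too low for the test within Rh30. The pair entered the test of the difference between the lines only through its level in RD and was not called. With Rh30 values this low, that result does not compare the effect of KDM3A-sh2 on the pair between the lines. For PSMB10 the difference of the effect between the lines was not called, so its fall in RD is not shown to be absent from Rh30. Among the other antigen processing genes in RD, of 10 measured, 4 rose (TAPBP, HLA-B, HLA-C and HLA-E), 1 fell (IRF1) and 5 were not called. This was 40.0% and 10.0%, against 21.6% and 19.5% of all genes. In Rh30, 1 of 7 rose and 4 fell (14.3% and 57.1%, against 15.3% and 13.2%). The summed leukocyte markers ran from 22.1 to 24.3 FPKM in RD KDM3A-sh2 and from 14.7 to 16.8 FPKM in RD Scramble, a sum made almost wholly of CD68 (means of 22.7 and 15.4 FPKM), while PTPRC averaged 0.0111 and 0.0398 FPKM.

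**Figure D5:**
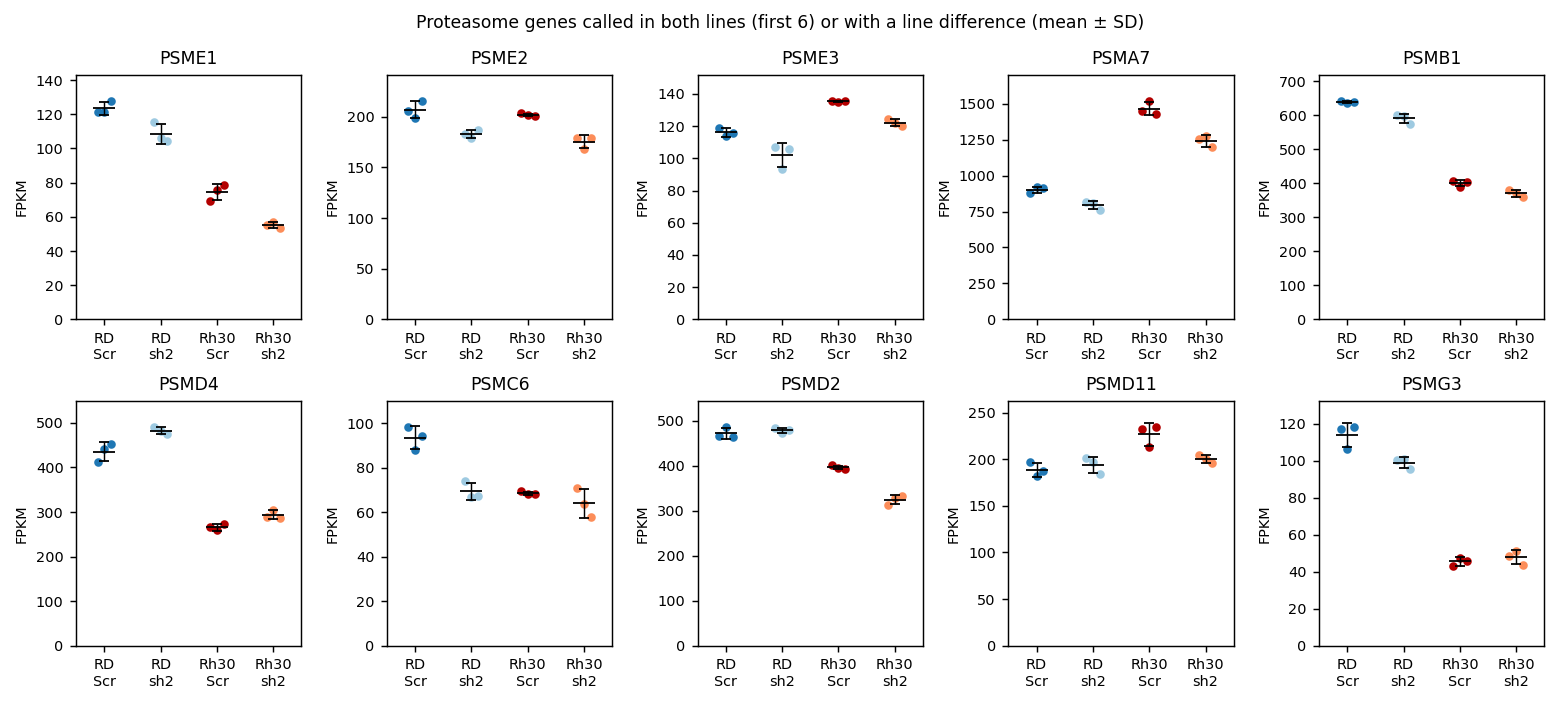
FPKM of 10 members in the 4 groups (Scr is Scramble, sh2 is KDM3A-sh2), with 1 point per library and bars for the mean ± SD (n = 3). PSME1, PSME2, PSME3, PSMA7 and PSMB1 are lower and PSMD4 is higher with KDM3A-sh2 in both lines, and PSMC6, PSMD2, PSMD11, PSMG3 and also PSME1 are the members whose effect differed between the lines.

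In the base, PSMD4 rose in both lines, from 412.5, 441.4 and 452.7 to 490.7, 481.6 and 475.3 FPKM in RD (0.15, adjusted p = 0.0250, limma) and from 265.7, 258.6 and 273.2 to 289.6, 304.8 and 286.3 FPKM in Rh30 (0.14, adjusted p = 0.0331). The call was lost in RD without Scramble replicate 2 (adjusted p = 0.0531) or KDM3A-sh2 replicate 1 (0.0778) or 2 (0.0667), and in Rh30 without replicate 1 or 2 of either group (0.0790 to 0.0985). Beside it ADRM1, another ubiquitin receptor of the base, rose from 153.9 ± 12.6 to 187.8 ± 5.89 FPKM in RD (0.29, adjusted p = 0.00970), and in Rh30 from 165.1 ± 15.1 to 200.2 ± 3.98 FPKM (0.28, adjusted p = 0.0228, and 0.0552 to 0.0706 without any 1 of the KDM3A-sh2 libraries).

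The remaining differences were called in 1 line. PSMC6, an ATPase, was at 98.3, 88.1 and 94.3 FPKM in RD Scramble and at 73.9, 66.9 and 67.4 FPKM in RD KDM3A-sh2, lower by 25.8% (-0.43, SE 0.0581, adjusted p = 0.00141, limma). In Rh30 it was at 69.4, 68.2 and 68.0 FPKM and then at 70.8, 63.6 and 57.7 FPKM, groups that overlapped (-0.10, adjusted p = 0.345). It was the only ATPase called in either line. The RD call stayed with any 1 library left out.

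PSMD2, a scaffold subunit of the base, showed the opposite arrangement. In Rh30 it fell from 400.7, 395.8 and 392.3 to 313.2, 329.3 and 332.1 FPKM, or by 18.0% (-0.29, SE 0.0336, adjusted p = 0.00166, limma). In RD it was at 467.3, 486.1 and 463.0 and then at 484.3, 473.1 and 478.9 FPKM (0.02, adjusted p = 0.635). Its call in Rh30 stayed with any 1 library left out.

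In the lid, PSMD14 rose in RD from 174.9, 178.2 and 182.2 to 206.5, 200.8 and 199.1 FPKM (0.18, SE 0.0324, adjusted p = 0.00471, limma), as did PSMD8 (334.7 ± 2.72 to 380.9 ± 10.3 FPKM, 0.19, adjusted p = 0.00342). PSMD13 fell in RD (266.4 ± 6.19 to 242.4 ± 11.6 FPKM, -0.14, adjusted p = 0.0407), a call lost without any 1 library but KDM3A-sh2 replicate 1 (0.0553 to 0.115). In Rh30, PSMD14 was at 75.4, 75.8 and 81.5 and then at 79.9, 82.0 and 70.2 FPKM (-0.01, adjusted p = 0.955), and PSMD8 was not called. The lid genes that fell in Rh30 were PSMD7 (77.2 ± 1.45 to 67.3 ± 0.736 FPKM, -0.19, adjusted p = 0.00842) and PSMD11 (226.7 ± 12.0 to 200.2 ± 4.31 FPKM, -0.18, adjusted p = 0.0293). The PSMD11 call was lost without any 1 library but Scramble replicate 2 (adjusted p = 0.0635 to 0.0911). PSMD8 and PSMD13 moved the same way in Rh30 without a call (means 320.9 to 350.2 and 136.5 to 128.1 FPKM). So did PSMD7 in RD (128.2 to 119.6 FPKM). These groups did not overlap, as for 45.8% of all genes in Rh30 and 53.4% in RD. The difference between the lines was not called for PSMD7, PSMD8, PSMD13 or PSMD14. Their changes are thus not shown to be absent from the other line.

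Among the assembly factors, PSMG3 fell in RD from 117.4, 106.3 and 118.3 to 100.7, 100.9 and 95.4 FPKM (-0.20, adjusted p = 0.0201, limma), as did PSMG1 (105.0 ± 0.915 to 95.7 ± 3.11 FPKM, -0.13, adjusted p = 0.0259). PSMD5, a chaperone of the base, rose in RD (75.1 ± 4.14 to 83.5 ± 2.00 FPKM, 0.15, adjusted p = 0.0432), a call lost without any 1 library but Scramble replicate 1 (0.0639 to 0.119). The Rh30 values were 43.0, 47.6 and 46.0 and then 48.3, 51.4 and 43.8 FPKM for PSMG3 (0.07, adjusted p = 0.506) and 168.2 ± 6.10 and 169.1 ± 5.41 FPKM for PSMG1 (0.01, adjusted p = 0.908). PSMG4 rose in Rh30 from 10.6, 8.65 and 9.34 to 12.4, 12.7 and 11.7 FPKM (0.34, adjusted p = 0.0267), and in RD it was at 7.84, 7.08 and 7.81 and then at 7.70, 8.22 and 7.09 FPKM (0.01, adjusted p = 0.906). PSMG2 was not called in either line (-0.01, adjusted p = 0.897, and -0.00, adjusted p = 0.971). Of these calls, that of PSMG3 was lost without Scramble replicate 1 (adjusted p = 0.0615) or 3 (0.0634) or KDM3A-sh2 replicate 3 (0.0598), that of PSMG1 without any 1 Scramble library or KDM3A-sh2 replicate 2 (0.0545 to 0.0810), and that of PSMG4 without any 1 library but Scramble replicate 1 (0.0505 to 0.0831).

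The difference of the KDM3A-sh2 effect between the lines was called for 5 of the 47 entries, 2 of them with a higher and 3 with a lower value in Rh30. This was 4.26% and 6.38%, against 14.4% and 13.4% of the 18517 genes tested. The 47 include PSMB8 and PSMB9, which passed the filter only through their level in RD. The difference was -0.31 for PSMD2 (SE 0.0421, adjusted p = 0.000371, limma), and its call stayed with any 1 of the 12 libraries left out. The other 4 lost their call when single libraries were left out. The difference was 0.33 for PSMC6 (adjusted p = 0.0310), which lost its call without 9 of the 12 libraries (0.0511 to 0.0693), and -0.24 for PSME1 (adjusted p = 0.0369), without 8 of 12 (0.0508 to 0.0811). It was -0.22 for PSMD11 (adjusted p = 0.0350), without 8 of 12 (0.0635 to 0.0800), and 0.27 for PSMG3 (adjusted p = 0.0473), without 9 of 12 (0.0664 to 0.104). With every library scaled to the same FPKM sum the difference was called for 8 lower and none higher, and with single libraries left out the counts ran from 0 to 3 higher and from 1 to 3 lower. KDM3A itself fell further in RD than in Rh30 (difference 0.37, adjusted p = 0.0388), a call lost without 8 of 12 libraries (0.0564 to 0.0868).

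Around the members, 29 other genes of the pathway were followed: assembly and recycling helpers, transcription factors of proteasome genes with the enzymes that release them, ubiquitin shuttles and the genes that supply ubiquitin. In RD 9 rose and 5 fell (31.0% and 17.2%, against 21.6% and 19.5% of all genes). In Rh30 6 rose and 5 fell (20.7% and 17.2%, against 15.3% and 13.2%). Between the lines with Scramble 12 were higher and 12 lower in Rh30 (41.4% each, against 35.0% and 39.6%). The assembly factor POMP was the one most raised in Rh30, at 58.1, 50.6 and 52.9 FPKM in RD Scramble and 141.0, 127.0 and 146.9 FPKM in Rh30 Scramble (1.34, SE 0.0729, adjusted p = 3.30e-06, limma), while most beta subunits, whose insertion it guides, were lower there. With KDM3A-sh2 POMP was not called in RD (0.10, adjusted p = 0.238) or in Rh30 (0.10, adjusted p = 0.303). The largest drop between lines was in ZFAND2A, a stress-induced regulator of the proteasome (94.0 ± 2.58 and 9.88 ± 0.194 FPKM, -3.13, adjusted p = 1.30e-08).

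NFE2L1, which encodes NRF1, the factor that raises proteasome genes when the proteasome is inhibited, was at 371.1, 367.5 and 378.7 FPKM in RD Scramble and at 205.8, 210.2 and 205.6 FPKM in Rh30 Scramble (-0.84, adjusted p = 4.25e-07, limma). With KDM3A-sh2 it was at 388.9, 401.7 and 405.6 FPKM in RD (0.10, adjusted p = 0.0393) and at 173.5, 154.6 and 167.2 FPKM in Rh30 (-0.33, adjusted p = 0.00367). The effects differed between the lines (-0.43, adjusted p = 0.000255). The rise in RD kept its call only without KDM3A-sh2 replicate 1, and was at 0.0605 to 0.114 without any other library. Both the fall in Rh30 and the difference stayed called with any 1 library left out.

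Among the other pathway genes the largest rise with KDM3A-sh2 was that of UBE3C in RD and of AKIRIN2 in Rh30, and the largest drop that of UBA6 in both lines. UBE3C, a ubiquitin ligase bound to the proteasome, rose in RD from 81.4, 85.0 and 81.7 to 116.1, 116.0 and 121.1 FPKM (0.50, adjusted p = 0.000108, limma). UBA6, which activates ubiquitin, fell in RD from 87.5, 86.4 and 69.9 to 53.1, 56.6 and 55.9 FPKM (-0.54, adjusted p = 0.00294) and in Rh30 from 80.5, 85.1 and 77.2 to 56.4, 52.3 and 60.1 FPKM (-0.52, adjusted p = 0.00190). AKIRIN2, which brings proteasomes into the nucleus, rose in Rh30 from 83.7, 85.3 and 78.5 to 106.0, 105.0 and 107.4 FPKM (0.36, adjusted p = 0.00163) and not in RD (-0.05, adjusted p = 0.527), a difference between lines of 0.41 (adjusted p = 0.00114). For UBE3C the difference between lines was -0.45 (adjusted p = 0.000899), the most negative of the 29 genes. UBQLN1 and UBQLN2, shuttles that carry ubiquitin-tagged proteins to the proteasome, fell nearly as far as UBA6 and were singled out after their values were seen. UBQLN1 was at 140.0 ± 5.29 and 96.0 ± 5.10 FPKM in RD Scramble and KDM3A-sh2 (-0.54, adjusted p = 0.000282) and at 202.7 ± 16.7 and 143.8 ± 5.05 FPKM in Rh30 (-0.49, adjusted p = 0.00252). UBQLN2 fell from 19.8, 20.4 and 19.8 to 12.8, 13.6 and 14.4 FPKM in RD (-0.53, adjusted p = 0.000623) and from 16.9 ± 0.253 to 12.0 ± 0.242 FPKM in Rh30 (-0.46, adjusted p = 0.00141).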

How the data were processed

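RNA of 12 libraries was sequenced. The authors used GSNAP for alignment to GRCh38, then SAMtools, and Cufflinks for FPKM. The deposited values are FPKM without a log. Sequencing was directional per the Methods. The annotation release and the strand setting of Cufflinks are not given in the sources used here, and the stated read lengths differ between labels and Methods. Of 66095 entries, 120 repeats of an identifier were left out. The placeholder 999999999, in 17 entries and no member, was treated as missing.

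Values were tested with limma 3.58.1 in R 4.3.3 (lmFit, eBayes with a trend, two-sided) on log2(FPKM + 1), pseudocount 1, keeping genes whose mean over the libraries fitted reached 1 FPKM, with Benjamini-Hochberg adjustment over all of them and a threshold of 0.05. An exact permutation test of 3 against 3 libraries cannot go below 0.1 and was not used. The 4 comparisons were KDM3A-sh2 against Scramble in each line, the lines in Scramble, and the difference of the knockdown effects. The script was tested on simulated data. Tables and figures used Python 3.11.15, pandas 2.3.3, NumPy 2.4.6 and matplotlib 3.10.9, and positions GENCODE 29. Alternatives were another pseudocount or filter, 2 scalings, a linear model of each gene alone, a fit over all libraries, the replicate number as a block, and leaving out each library.

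The members and all lists were chosen with earlier results of these data known. Some genes of the pathway, antigen processing and leukocyte lists are not reported here, and the counts leave them out. Named genes were, for each comparison, the 3 called members with the largest rise and the 3 with the largest drop, the cutting subunits and their immunoproteasome counterparts, PSMD14, PSMD4, the activators, PSMF1, PSMG1 to PSMG4, members of a count of 5 or fewer, KDM3A, POMP, ADRM1, NFE2L1 and the other pathway genes with the largest rise and drop.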

Additional observations from a re-analysis of the deposited data

Results flagged for a closer look

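The effect of KDM3A-sh2 differed between the lines, by limma's test of the difference (Rh30 minus RD, log2(FPKM + 1) scale, adjusted p under 0.05), for 5 proteasome entries: PSMC6 (0.33), PSMG3 (0.27), PSMD11 (-0.22), PSMD2 (-0.31) and PSME1 (-0.24). Of the 47 entries 4.26% were thus positive and 6.38% negative, smaller shares than the 14.4% and 13.4% of all genes tested. Only PSMD2 kept this call in all 20 alternatives run. Among the other pathway genes the difference was positive for AKIRIN2 (0.41), ZFAND2A (0.39) and RPS27A (0.30), the last of which encodes ubiquitin fused to a ribosomal protein. It was negative for UBE3C (-0.45), NFE2L1 (-0.43), ECPAS (-0.32), NFE2L2 (-0.30), RAD23B (-0.26), UFD1 (-0.22) and USP14 (-0.18). Of the 29 pathway genes 10.3% were positive and 24.1% negative, against the same 14.4% and 13.4% of all genes. KDM3A, the target of the shRNA, differed by 0.37 (adjusted p = 0.0388), a call kept in 8 of the 20 alternatives (adjusted p = 0.0230 to 0.0920 over all of them), and its part in these differences was not tested.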

How the results depend on the processing

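Members' counts and medians moved as follows. In RD, 4 rose without the filter and with each gene modelled alone on log2 or unlogged values, and 8 fell with each gene alone on the log2 scale or the same sum (median -0.01 for the latter). Leaving out single libraries gave 3 to 8 higher and 6 to 12 lower, with medians of -0.06 to -0.03. In Rh30, 1 rose without the filter, with each gene alone (both scales) or with the replicate block, 2 rose after median-ratio scaling and 5 fell with the block; single libraries gave 1 to 3 higher, 5 to 7 lower and medians of -0.03 to 0.01. Between lines, the same sum gave 7 higher and a median of -0.46, median-ratio scaling a median of -0.30, and single libraries 9 to 11 higher, 28 to 29 lower and medians of -0.36 to -0.31. For the difference of the effects, 1 was higher with a pseudocount of 0.1, median-ratio scaling or the block, 0 without the filter, with the same sum or each gene alone on log2, and 6 on unlogged values. There 1 was lower without the filter or with each gene alone on log2, and 8 with the same sum (median -0.06), and single libraries gave 0 to 3, 1 to 3 and medians of -0.03 to 0.02. The cause of these shifts was not tested. Direction turned only where values were near 0. In RD these were PSMB6 (0.00 with the same sum, -0.07 to 0.02 without a library), PSMG2 (0.02 with the same sum, -0.05 to 0.03 without a library), PSMB7 (-0.01 without a library) and PSMG4 (-0.03). In Rh30 these were PSMG1 (-0.02 under either scaling, -0.01 to -0.00 without a library), PSMB7 (-0.00 by median ratio), PSMB10 (-0.08 to 0.04), PSMD14 (-0.05 to 0.06) and PSMG2 (-0.04 to 0.06), the last 3 without a library. Between lines these were ADRM1 (-0.01, same sum) and PSME2 (0.02, median ratio). Deviations of same-numbered libraries from their group means correlated from -0.0744 to 0.0713. Differently numbered libraries were not set beside them, so whether replicate numbers pair the libraries was not settled. The replicate block as a term changed no count by over 1.5 times other than those given above. FPKM without read numbers limit what can be said of genes below 1 FPKM.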
